A study of Mus musculus with 2 samples.

Results

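The genes of homologous recombination, the Fanconi anaemia pathway and mismatch repair were compared between 2 arrays of imatinib-treated Ba/F3 cells. A list of 47 genes was searched among the probe sets annotated with 1 gene symbol, and 45 genes were found, of 19935 genes measured in all. Xrcc2 and Rbbp8 were not analysed here. A gene with several probe sets is represented by that whose mean over the 2 arrays is highest. The 45 genes were placed by known role into 9 groups.

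Ba/F3, an established murine pro-B cell line, needs interleukin-3 (IL-3) to grow, and BCR-ABL is the leukaemic fusion kinase that frees it from that need. Both samples constitutively expressed BCR-ABL, were grown with 10% fetal bovine serum and received imatinib, an inhibitor of the ABL kinase, read here as 5 µM, for 6 h. The array titled Live-IL3 came from cells grown with IL-3, which the submitters call resistant, and the array titled Live-NoIL-3 came from cells grown without it, which they call sensitive. The description of the first sample says that its cells were grown without IL-3, against its title and source name, and the source name of the second can be read as without imatinib, against the treatment protocol. The titles were followed, so swapped labels would turn every sign below. Each condition had 1 array, so no difference below has a replicate check, an error between cultures or a test. The values are log values, taken as log2, given against a baseline that differs by probe set and is not known. They show differences between the arrays but not how strongly a gene is expressed, and for the same reason the B-lineage markers of the line could not be used to check its identity. A positive difference means higher with IL-3, and folds would be larger if the logs were natural.

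Homologous recombination mends double-strand breaks and broken replication forks from an intact sister copy. Broken ends are trimmed to single strands, the BRCA proteins prepare these strands, and the strand invades the sister duplex. The Fanconi pathway unhooks crosslinks between the strands by placing ubiquitin on the FANCD2-FANCI pair and then hands the break to recombination, while mismatch repair removes copying errors behind the fork. All of these processes serve replicating DNA, and many of their genes are known to be transcribed mostly in the S phase of the cell cycle.

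Most of the repair genes were higher with IL-3. Of the 45 genes, 41 had a difference above 0, against 59.8% of all genes, and the median difference was 0.55, against 0.04 over all genes. At least 1.5-fold higher were 19 genes (42.2%), against a background of 3.52% of all genes, and at least 2-fold higher were 4 genes (8.89%), against 0.441%. The list was chosen with earlier results of these data known, so its contrast with all genes is a description only. No member was at least 1.5-fold lower (0 of 45, against 2.71% of all genes) or 2-fold lower (0 of 45, against 0.657%). With shares that small, 0 of 45 lies near the background. The 4 genes past 2-fold were Hrob, Rad54l, Fancd2 and Blm, at places 9, 18, 50 and 80 among all genes ordered from the highest difference down. Among the 45 genes, 24 lay at or above percentile 95 of all differences.

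The members' values, each relative to its own baseline, were spread wider with IL-3 (SD over genes 0.42) than without it (0.28). Because the baseline differs by probe set and is not known, these spreads are not spreads of expression level. All 45 genes had a value above 0, above the baseline, with IL-3, against 29 without IL-3. Over all genes these shares were 45.3% with IL-3 and 43.4% without. The members ran from 0.05 to 1.68 with IL-3 (median 0.74) and from -0.62 to 0.78 without IL-3 (median 0.25). Relative to the baseline, their means of both arrays were mostly high, with 31 of 45 in the highest 25% of all genes. A high value in the array with IL-3 can alone bring a gene into that range, so the members there were not counted against it. Differences of any gene were wider in that range, where 12.8% of all genes were at least 1.5-fold higher and 1.71% at least 2-fold higher.

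**Figure D1:**
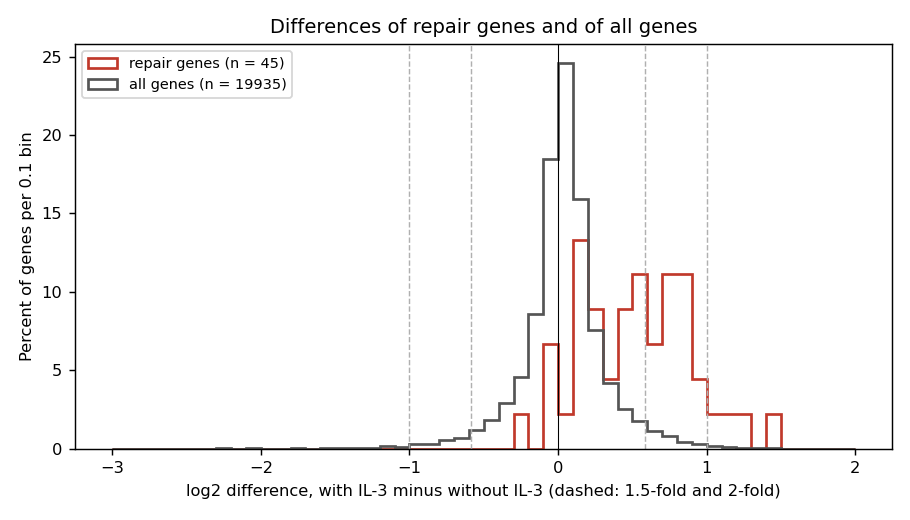
Share of genes, in percent per bin of 0.1, by log2 difference (with IL-3 minus without IL-3), for the 45 repair genes and for all 19935 genes, 1 array per condition. The repair genes are spread from -0.22 to 1.41 with a median of 0.55, while all genes centre near 0.04.

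**Figure D2:**
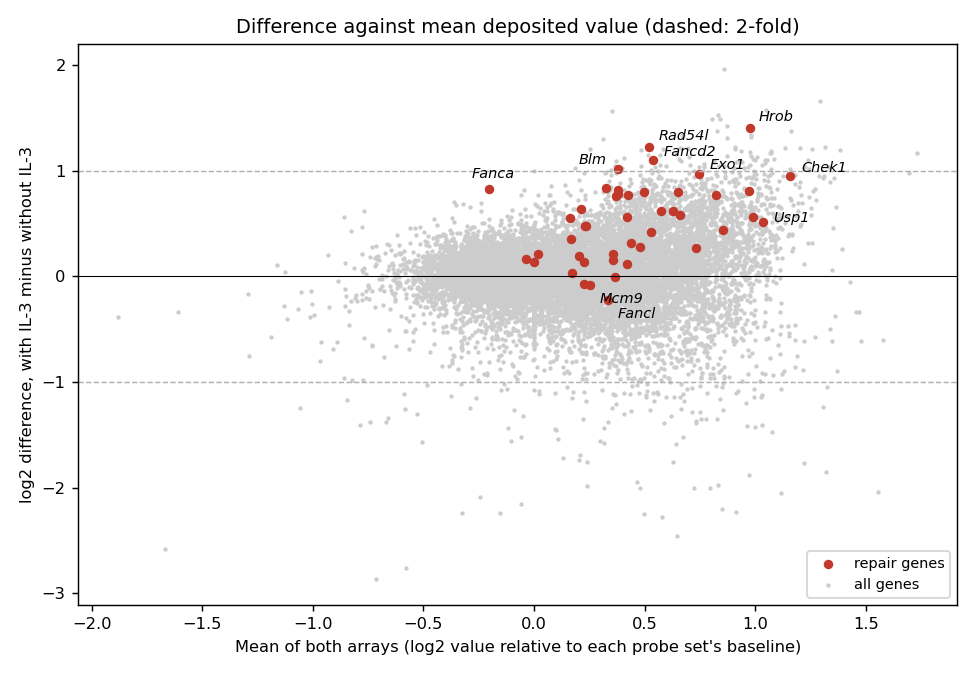
Log2 difference (with IL-3 minus without IL-3) against the mean of both arrays, each relative to the probe set's baseline, for all genes in grey and the 45 repair genes in red. Hrob, Rad54l, Fancd2 and Blm lie above the 2-fold line, and Fanca is the member farthest to the left.

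Precision could be judged only within the arrays. Among 998 genes with several probe sets, the difference varied between probe sets of a gene with a pooled SD of 0.14, which covers measurement in these 2 arrays and not the spread between cultures. The difference of 7 members was smaller than that SD. Bard1 and Nbn were the members with several probe sets. The 3 probe sets of Bard1 gave differences of 0.41, 0.53 and 0.62, all in one direction, and those of Nbn gave 0.03 and 0.0069.

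Because many members were higher together, their promoters were read for words that cell cycle factors are known to bind. RefSeq promoters (GRCm38.p6, 250 bases before to 50 after the start of transcription) were matched by symbol for 36 of the 47 listed genes. Hrob, Fancd2, Exo1 and Rad54b, all at least 1.5-fold higher, had no matched promoter, so the counts below leave them out. The E2F consensus was searched on both strands as TTTCCCGC, TTTCGCGC, TTTGCCGC and TTTGGCGC. It was found in 7 of the 36 genes (19.4%), against 3.29% of 17492 protein-coding genes and 2.6% of all 27025 genes with a promoter in the table. The members' promoters had a median GC content of 59.8%, against 57.3% in protein-coding genes, and the E2F words are rich in G and C. The 7 genes were Bard1, Brca2, Rad51c, Mcm8, Fancg, Chek2 and Msh6, whose expression differences ran from 0.27 to 0.80. The word was about as frequent in members at least 1.5-fold higher (3 of 15 genes, 20%) as in the others (4 of 21, 19%). The CCAAT box (CCAAT on either strand) was found in 22 of 36 genes (61.1%), against 42.3% of protein-coding genes. The cell cycle homology element (TTTGAA on either strand, which none of the E2F words contains) was found in 4 of 36 genes (11.1%), against 18.5%. Its 4 genes were all among the 15 at least 1.5-fold higher (26.7%), with 0 among the 21 others, whereas the CCAAT box was in 7 of those 15 (46.7%) and 15 of the 21 others (71.4%). Median GC content was 57.3% in the 15 genes and 60.3% in the 21 others. A gene with several starts was counted if any of them held the word. These splits were not tested. A match is a string of letters and not a shown binding site.

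The promoters below run from 250 bases before the start to 30 after it, 5′ to 3′ on the gene's strand, with the E2F words in capitals. The first 6 are shown because they hold such a word in that stretch, and Blm and Rad54l because they were at least 2-fold higher and hold none. Hrob and Fancd2, the other genes past 2-fold, had no matched promoter.
Brca2 (chr5:150522371-150522650, plus strand): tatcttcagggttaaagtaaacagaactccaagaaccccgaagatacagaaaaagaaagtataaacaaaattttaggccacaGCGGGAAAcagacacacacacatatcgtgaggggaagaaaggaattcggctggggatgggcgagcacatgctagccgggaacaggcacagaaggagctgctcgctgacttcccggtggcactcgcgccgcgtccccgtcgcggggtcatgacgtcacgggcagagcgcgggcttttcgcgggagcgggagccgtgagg
Bard1 (chr1:71102943-71103222, minus strand): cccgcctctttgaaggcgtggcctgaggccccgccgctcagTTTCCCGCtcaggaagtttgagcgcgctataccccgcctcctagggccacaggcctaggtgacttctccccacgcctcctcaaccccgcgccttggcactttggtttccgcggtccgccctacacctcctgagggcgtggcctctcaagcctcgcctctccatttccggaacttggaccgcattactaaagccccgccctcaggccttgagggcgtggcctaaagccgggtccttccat
Rad51c (chr11:87404925-87405204, minus strand): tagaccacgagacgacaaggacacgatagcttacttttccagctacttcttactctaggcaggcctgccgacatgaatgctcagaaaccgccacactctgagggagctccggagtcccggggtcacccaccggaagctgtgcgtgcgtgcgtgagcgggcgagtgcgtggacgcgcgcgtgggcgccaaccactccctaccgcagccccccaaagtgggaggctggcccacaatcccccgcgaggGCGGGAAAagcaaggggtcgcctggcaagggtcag
Fancg (chr4:43010272-43010551, minus strand): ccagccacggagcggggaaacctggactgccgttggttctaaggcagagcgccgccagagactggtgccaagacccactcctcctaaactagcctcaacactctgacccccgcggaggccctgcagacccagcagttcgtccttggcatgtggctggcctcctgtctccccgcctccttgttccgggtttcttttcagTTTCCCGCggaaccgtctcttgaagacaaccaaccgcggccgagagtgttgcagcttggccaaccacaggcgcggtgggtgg
Chek2 (chr5:110839733-110840012, plus strand): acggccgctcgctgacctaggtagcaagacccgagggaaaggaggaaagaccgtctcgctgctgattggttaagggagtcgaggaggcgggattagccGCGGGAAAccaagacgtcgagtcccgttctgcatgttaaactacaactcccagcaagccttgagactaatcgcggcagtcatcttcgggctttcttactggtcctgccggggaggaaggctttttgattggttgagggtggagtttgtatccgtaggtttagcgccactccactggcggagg
Msh6 (chr17:87974800-87975079, plus strand): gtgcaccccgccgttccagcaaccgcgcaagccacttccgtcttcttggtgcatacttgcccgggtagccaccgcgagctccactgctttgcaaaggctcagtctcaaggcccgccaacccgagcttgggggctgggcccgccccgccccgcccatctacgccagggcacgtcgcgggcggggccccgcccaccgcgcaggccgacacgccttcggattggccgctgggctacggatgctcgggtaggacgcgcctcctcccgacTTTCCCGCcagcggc
Blm (chr7:80534969-80535248, minus strand): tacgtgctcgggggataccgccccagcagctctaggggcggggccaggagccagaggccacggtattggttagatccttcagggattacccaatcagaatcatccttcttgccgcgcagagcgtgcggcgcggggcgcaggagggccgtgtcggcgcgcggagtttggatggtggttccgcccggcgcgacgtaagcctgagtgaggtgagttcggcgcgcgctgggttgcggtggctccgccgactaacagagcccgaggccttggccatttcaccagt
Rad54l (chr4:116123661-116123940, minus strand): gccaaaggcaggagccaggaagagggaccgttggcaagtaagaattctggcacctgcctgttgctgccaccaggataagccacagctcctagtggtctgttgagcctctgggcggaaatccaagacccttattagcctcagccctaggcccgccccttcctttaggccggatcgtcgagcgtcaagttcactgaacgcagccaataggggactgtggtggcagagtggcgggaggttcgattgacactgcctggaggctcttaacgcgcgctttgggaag
The word began 209 bases before the start in Bard1, 168 before it in Brca2, 152 before it in Chek2 and 52 before it in Fancg. Rad51c has 2 starts in the table. At the printed one the word spans the start, from 5 bases before it, and at the other a different word of the set began at base 12 after the start. In Msh6 it began at base 16 after the start, and in Mcm8, not printed, at base 40.

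BRCA1 and its partner BARD1 are needed to begin recombination, PALB2 links them to BRCA2, and BRCA2 prepares single-stranded DNA for strand invasion. All of these genes were higher with IL-3. Brca2 reached 1.05 with IL-3, against 0.25 without IL-3, and was 1.74-fold higher. Bard1 had 0.94 with IL-3 and 0.32 without IL-3 (1.54-fold). Brca1 had 0.89 with IL-3 and 0.27 without IL-3 (1.54-fold). Palb2 stayed just short of 1.5-fold at 1.48-fold, with 0.70 with IL-3 and 0.14 without IL-3. The differences of the 4 genes thus ran from 0.56 for Palb2 to 0.80 for Brca2. Brca1 and Bard1 were near the 1.5-fold line and passed below it after quantile normalization and after subtraction of a loess trend. Bard1 was also below it, at 0.52, when its probe sets were averaged.

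Rad51b, Rad51c, Rad51d and Xrcc3, which encode mediators that work in shared complexes, did not move as one. Rad51c, which belongs to both of these complexes, had 0.77 with IL-3 and -0.012 without IL-3 (1.72-fold). Rad51b had 0.53 with IL-3 and -0.11 without IL-3 (1.56-fold). Rad51d, a partner of both in one complex, had 0.36 with IL-3 and 0.37 without IL-3. Xrcc3, the partner of Rad51c in the other complex, differed by 0.16, and Rad52, a further recombination mediator, by -0.07. In this group of 9 measured genes the median was 0.62, and 5 genes were at least 1.5-fold higher.

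Motor proteins and helicases that act on recombination intermediates had the highest median of the 9 groups, 0.81 over 6 genes, all above 0. Rad54l, a translocase that drives strand invasion, had 1.14 with IL-3 and -0.09 without IL-3, a 2.35-fold difference. Rad54b, its relative, had 0.81 with IL-3 and 0.04 without IL-3 (1.71-fold). Blm, the helicase that undoes crossed recombination intermediates and is mutated in Bloom syndrome, had 0.89 with IL-3 and -0.13 without IL-3 (2.03-fold). Its difference was 0.93 after quantile normalization and 0.97 after the loess trend was subtracted, just below 2-fold. Polq, the polymerase of microhomology-mediated end joining, had 0.74 with IL-3 and -0.10 without IL-3 (1.79-fold). These 4 genes were near or below the baseline without IL-3 and above it with IL-3, which does not show how strongly they were expressed. The helicase genes Brip1 and Wrn stood apart from them with differences of 0.32 and 0.15.

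HROB brings the MCM8-MCM9 helicase to recombination sites for repair synthesis. Hrob had the highest difference of all members, with 1.68 with IL-3 and 0.27 without IL-3 (2.66-fold). Mcm8 had 0.95 with IL-3 and 0.37 without IL-3. At 1.498-fold it was the member nearest below the 1.5-fold line. Mcm9 had 0.22 with IL-3 and 0.29 without IL-3, a difference of -0.08. The parts of this complex therefore ranged over nearly the whole span of the members. With the loess trend subtracted the difference of Hrob was 1.09, still past 2-fold.

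Among the genes of end resection, Exo1 stood out. It encodes a nuclease that lengthens single-stranded tails and also removes the faulty strand in mismatch repair. It had 1.23 with IL-3 and 0.26 without IL-3 (1.96-fold). Dna2, the other long-range nuclease, differed by 0.55, with 0.44 with IL-3 and -0.11 without IL-3. The break sensor of MRE11, RAD50 and NBN moved less, with differences of 0.48 for Mre11a, 0.21 for Rad50 and 0.03 for Nbn.

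The checkpoint kinases belong to 2 arms. ATR, with its partner ATRIP, answers single-stranded DNA at stalled forks and activates CHEK1. Chek1 had 1.64 with IL-3 and 0.68 without IL-3 (1.94-fold), and Atr had 1.21 with IL-3 and 0.44 without IL-3 (1.70-fold). Atrip differed by 0.36. ATM answers double-strand breaks and activates CHEK2. Atm had 0.48 with IL-3 and 0.36 without IL-3, a difference of 0.11. Chek2 had 0.86 with IL-3 and 0.60 without IL-3, a difference of 0.27. The genes of the ATR arm had the larger differences on the deposited scale. With the loess trend subtracted, Chek1 was at 0.54 and Atr at 0.53, both below 1.5-fold, Chek2 was at 0.07 and Atm at 0.05, while Atrip stayed at 0.36.

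The Fanconi core complex is the ubiquitin ligase of the pathway, and FANCM anchors it to DNA. Its 8 genes had a median of 0.38, 7 of them were above 0 and 3 were at least 1.5-fold higher. Fanca, a core subunit, had 0.21 with IL-3 and -0.62 without IL-3 (1.78-fold), so its difference came with the lowest value of any member without IL-3. Fancb, which stabilises the catalytic module, had 1.37 with IL-3 and 0.57 without IL-3 (1.75-fold). Fancf, an adaptor of the complex, had 0.90 with IL-3 and 0.10 without IL-3 (1.75-fold). Fancb was 0.49 after the loess trend was subtracted, below 1.5-fold. Fancg, Fancm, Fance and Fancc had differences of 0.48, 0.28, 0.20 and 0.14. Fancl, which encodes the catalytic subunit itself, had the lowest difference of all members, with 0.22 with IL-3 and 0.45 without IL-3 (-0.22).

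The substrates of the core complex differed more than most of its subunits. Fancd2 had 1.09 with IL-3 and -0.016 without IL-3, a 2.15-fold difference. Fanci, which forms the clamp with FANCD2, had 0.79 with IL-3 and -0.03 without IL-3 (1.77-fold). Without IL-3 both were close to the baseline, which is not a sign of low expression. Usp1, which encodes the protease that takes the ubiquitin off again, differed by 0.51, and Rad18, the ligase that places ubiquitin on the sliding clamp PCNA, by 0.44. Both were above the baseline in each array (1.29 and 1.07 with IL-3, and 0.78 and 0.64 without IL-3). The differences of Usp1 and Rad18 were 0.16 and 0.18 after the loess trend was subtracted. Fancd2 was then at 0.999, just below 2-fold.

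Of the nucleases that cut branched intermediates, Eme1 was the one past 1.5-fold. It had 0.75 with IL-3 and -0.010 without IL-3 (1.70-fold). Its catalytic partner Mus81 had 0.07 with IL-3 and -0.07 without IL-3 (1.10-fold). The scaffold gene Slx4 differed by 0.21. The subunits of the MUS81-EME1 nuclease were thus far apart in their difference. In mismatch repair, Msh6, part of the sensor of mispaired bases, had 1.27 with IL-3 and 0.71 without IL-3 (1.48-fold). Pms2, part of the nicking complex that follows, had 0.74 with IL-3 and 0.32 without IL-3 (1.34-fold). Neither passed 1.5-fold, and Msh6 was at 0.24 after the loess trend was subtracted.

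**Figure D3:**
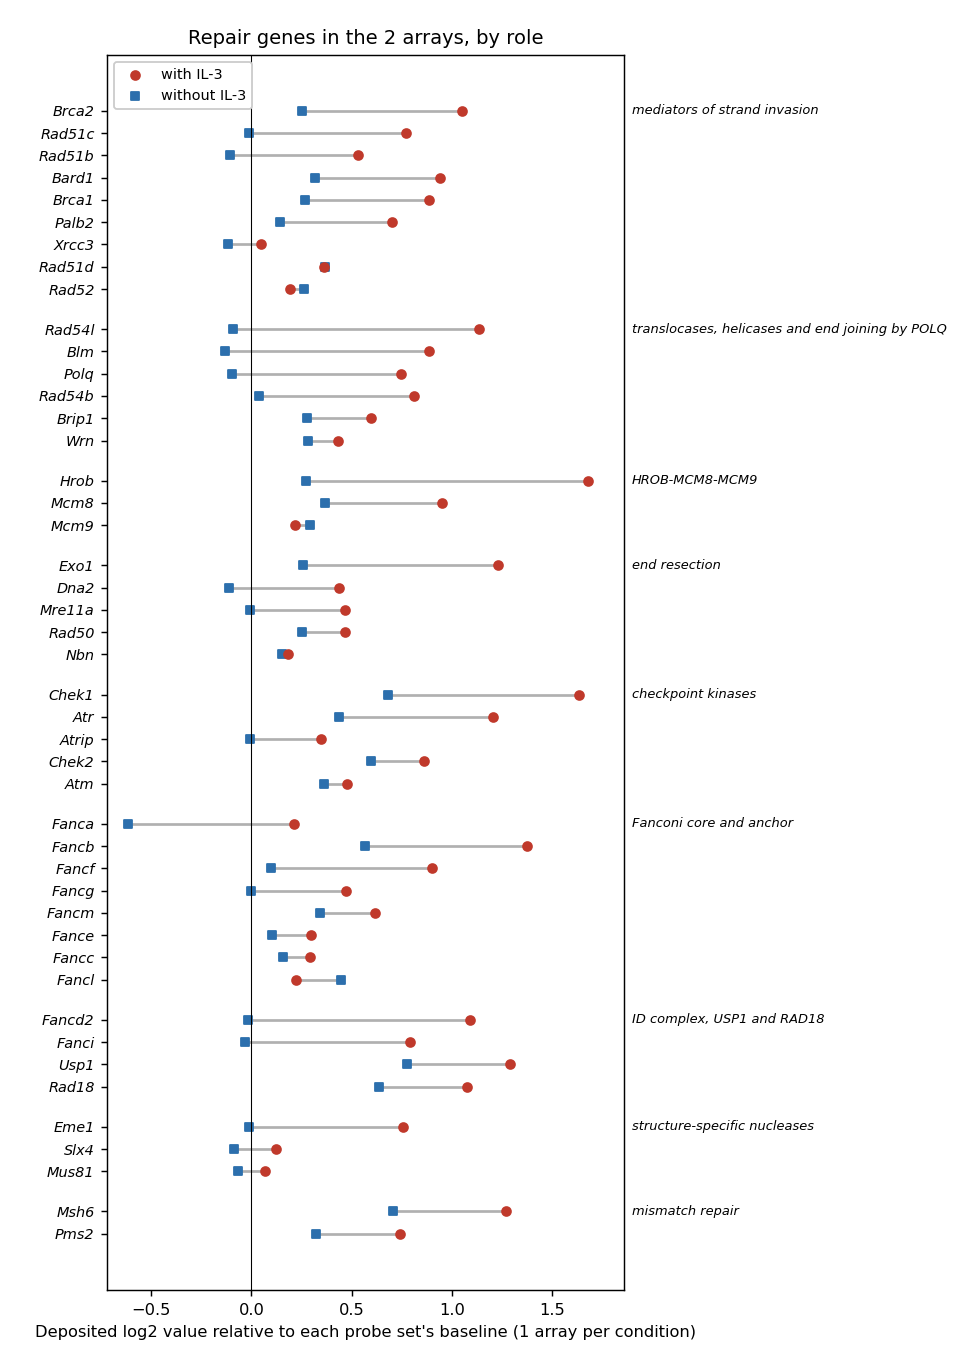
Deposited log2 values of the 45 repair genes relative to each probe set's baseline, in the array with IL-3 (red circles) and the array without IL-3 (blue squares), grouped by role and ordered by difference within a group. The red point lies right of the blue one in 41 genes, and Hrob has the longest line (1.68 with IL-3 and 0.27 without IL-3).

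Further genes of these pathways were taken from lists drawn up by pathway, with earlier results of these data known. Over all genes, 59.8% were above 0, 3.52% were at least 1.5-fold higher and 2.71% at least 1.5-fold lower. Among 35 other homologous recombination and Fanconi genes, 29 were above 0, 9 were at least 1.5-fold higher and 0 were 1.5-fold lower, with a median difference of 0.38. Fignl1, an ATPase gene of recombination, had 1.74 with IL-3 and 0.52 without IL-3 (2.33-fold), the highest of that list. Recql4, a RecQ helicase gene, had 0.50 with IL-3 and -0.35 without IL-3 (1.81-fold), and Rad51ap1, which promotes strand invasion, had 1.02 with IL-3 and 0.22 without IL-3 (1.73-fold). At the other end was Trp53bp1, which encodes the 53BP1 protein that shields ends from resection, at -0.22. Among 13 ATR checkpoint genes, 5 were at least 1.5-fold higher and the median was 0.54. The fork protection genes Tipin and Timeless had differences of 0.96 and 0.80, and Clspn, the adaptor that presents CHEK1 to ATR, had 0.71. Among 13 other genes of mismatch repair and its resynthesis step, 6 were at least 1.5-fold higher and the median was 0.44. All 6 were genes of the resynthesis step, whose proteins also act in DNA replication. The clamp loader genes Rfc3, Rfc4 and Rfc5 led with 1.04, 0.98 and 0.91, but another clamp loader gene, Rfc2, was lowest at -0.18. The mismatch recognition gene Msh3 differed by 0.25 and Mlh3 by 0.14, both short of 1.5-fold.

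The other repair pathways had lower medians. Over all genes 3.52% were at least 1.5-fold higher and 2.71% lower, so counts of 0 or 1 in such short lists differ little from that background. Non-homologous end joining, which rejoins ends directly, had a median of -0.05 over 11 genes, with 5 above 0 and 1 at least 1.5-fold higher. That gene was Xrcc5, which encodes KU80, with 1.07 with IL-3 and 0.48 without IL-3. Xrcc4, the partner of ligase IV, had the lowest difference there, -0.43. Translesion synthesis, which copies past damage, had a median of -0.10 over 10 genes, with 4 above 0 and 0 past 1.5-fold in either direction. Ube2b, the ubiquitin-conjugating partner of RAD18, was lowest at -0.47, with 0.60 with IL-3 and 1.07 without IL-3. Nucleotide excision repair had a median of 0.09 over 17 genes, with 9 above 0, 0 at least 1.5-fold higher and 1 at least 1.5-fold lower. The lower gene was Xpc, the damage sensor, which had 0.03 with IL-3 and 0.71 without IL-3 (1.60-fold lower). Base excision and single-strand break repair had a median of 0.23 over 18 genes, with 15 above 0 (83.3%, against 59.8% of all genes). At least 1.5-fold higher were 2 genes (11.1%, against 3.52%). These were the flap nuclease gene Fen1 (1.99-fold) and Parp1 (1.92-fold), both of which encode proteins that also act at replication forks. The difference between these pathways and the recombination genes was not tested.

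**Figure D4:**
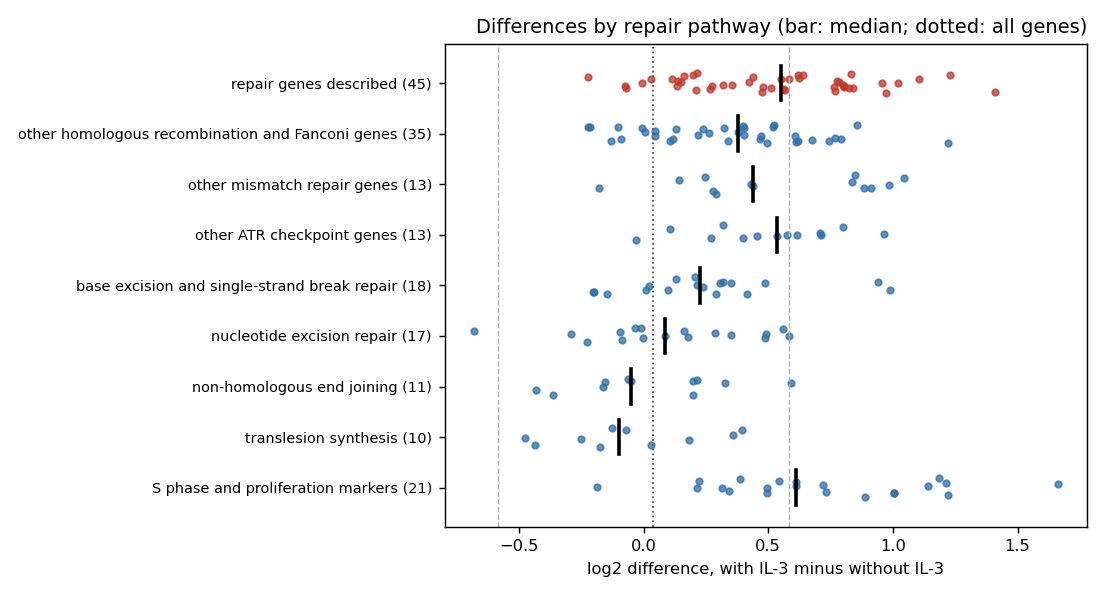
Log2 difference (with IL-3 minus without IL-3) of each gene, 1 point per gene, for the 45 repair genes and for lists of further repair and S phase genes, with the number of genes in brackets, a bar at each median and dashed lines at 1.5-fold. The medians run from -0.10 for translesion synthesis to 0.61 for the S phase and proliferation markers, with 0.55 for the 45 repair genes.

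Genes of DNA replication moved with the repair genes. Of 21 S phase and proliferation markers, 20 were above 0 (95.2%, against 59.8% of all genes). At least 1.5-fold higher were 12 (57.1%, against 3.52%) and at least 2-fold higher 7 (33.3%, against 0.441%). Their median was 0.61. Rrm2, a ribonucleotide reductase subunit, had 2.12 with IL-3 and 0.46 without IL-3. The proliferation marker Mki67 had 0.22 with IL-3 and -0.0013 without IL-3. In these bulk samples fewer cells in S phase and less RNA per cell cannot be told apart. Some markers of mast cells and basophils (4 of 8) and of granulocytes (3 of 9) were lower with IL-3 by at least 1.5-fold, against 2.71% of all genes. In each list 3 markers were above 0. The list medians were -0.50 and -0.07. The mast cell and basophil values ran from -0.58 to -0.08 with IL-3 and from -0.39 to 1.88 without IL-3, and the granulocyte values from -2.15 to -0.02 with IL-3 and from -0.63 to 0.80 without IL-3. Of the macrophage and T cell markers, 1 of 4 and 1 of 5 were at least 1.5-fold lower, and of the 7 B-lineage and 2 erythroid markers 0 passed 1.5-fold. The part of S phase content and of these other markers in the differences of the repair genes was not tested.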

How the data were processed

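RNA of 2 samples was converted to sense-strand cDNA, labelled with biotin and hybridised as 1 colour to mouse Gene ST arrays, per the labels' protocols. The log2 values deposited by the authors (log base taken as 2, since none is stated) had been summarised to 28815 probe sets and set against a per-probe-set baseline, as the values themselves show: their medians are -0.03 with IL-3 and -0.05 without it. In 6.11% of probe sets the values are equal and opposite, their sum within 1e-05 of 0. The methods of background correction, normalization and summarisation: not given in the sources used here. Genes came from the platform annotation: 21780 probe sets had 1 symbol, 1605 several and 5430 none. Samples were grouped by title. With 1 array per condition no test was run, and the precision is limited by the number of arrays. Genes were described by a fixed size of 1.5-fold or 2-fold (log2 0.58 and 1), with no filter. Members whose difference reached 1.5-fold, and the nearest below it, are given in both arrays; from other lists, genes among the 3 highest or 3 lowest. Members and lists were chosen with earlier results of these data known. Median centring, quantile normalization, a loess trend (fraction 0.3, statsmodels 0.14.6), averaged probe sets, a filter and natural logs were tried. The steps were tested on simulated data.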

Additional observations from a re-analysis of the deposited data

How the results depend on the processing

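The 41 members above 0 held under median centring, quantile normalization, loess subtraction, averaged probe sets and natural logs, with no member changing sign. The count of 0 members 1.5-fold lower held too, but it lies near the background, 2.71% of all genes on the deposited scale. Members at least 2-fold higher numbered 4 on the deposited scale and 2 with the loess trend subtracted (Hrob and Rad54l, against 0.145% of all genes). When values in both arrays had to be at least the array's median, they numbered 2 (Hrob and Fancd2). These were of 36 members left, against 0.871% of the 8383 genes left. If the values are natural logs, 16 members were at least 2-fold higher, against 2.1% of all genes. The filter is not one on expression level, because a baseline was subtracted, and it removed Rad54l and Blm, which were below the array median without IL-3. The median difference of the members was 0.79 with natural logs and between 0.46 and 0.53 under the other alternatives. At least 1.5-fold higher were 19 members after median centring (against 3.21% of all genes) and 17 after quantile normalization (against 2.41%). With the loess trend subtracted they were 14 (against 1.79%), and with averaged probe sets 18, for which no share was counted. Under the filter they were 14 of 36, against 7.4% of the genes left. All of these were among the 19 of the deposited scale. Natural logs gave 28, the same 19 and 9 further members (against 7.4% of all genes). Without replicates, leaving out an array was not possible. No paired analysis was possible because each condition had 1 array. Signal over background is unknown, since the baseline hides it.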
